A study of Homo sapiens with 16 samples.

Results

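The genes described here are SGK1, FKBP5, TSC22D3, KLF9, NR3C1 and NR3C2, that is, genes known to be induced by glucocorticoids together with the receptors for these hormones. They were taken by their symbol in the array annotation, with all their probe sets, which gave 6 of 18239 annotated genes and 29 of 45253 probe sets with a single symbol. The genes were chosen with results of these arrays in view, so their levels and changes are given as a description. Nothing is read from whether they pass a test. Of the 6 genes, 5 passed the limit on dim signals and NR3C2 did not. Of the 29 probe sets, 23 lay at or above that limit, a mean log2 value of 3.65 over the 16 arrays.

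The arrays hold total RNA of SK-N-SH, a human neuroblastoma cell line whose cultures are known to contain neuroblast-like cells beside flat, substrate-adherent, mesenchymal cells. Cells received 10 µM risperidone, an antipsychotic that blocks dopamine and serotonin receptors, for 6, 24 or 48 h, or stayed untreated. Each of the 4 groups had 4 Affymetrix U219 arrays, labelled as biological replicates without a description of separate cultures, so errors and p-values reflect differences among these samples alone, which may be technical. The drug was dissolved in DMSO. The controls are labelled untreated, whereas the treatment protocol gives control cells the DMSO vehicle, and no harvest time is given for them, so the same 4 untreated arrays stand against every exposure time. All groups shared 1 cell line and a serum-containing medium. Values are on the log2 scale, where a difference of 1 is a doubling of signal. Levels are compared between samples for 1 probe set at a time and not between genes.

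Glucocorticoids enter the cell and bind the glucocorticoid receptor, which is encoded by NR3C1 and is held in the cytoplasm by the HSP90 chaperone complex. The hormone-bound receptor moves to the nucleus and binds DNA at paired half-sites, often in enhancers far from the promoter. The mineralocorticoid receptor, encoded by NR3C2, recognises the same element and also binds cortisol. Among the genes that the receptor induces in many cell types are FKBP5, a co-chaperone that lowers the receptor's affinity for hormone, TSC22D3, also called GILZ, a leucine zipper protein with anti-inflammatory functions, and KLF9, a zinc finger transcription factor. SGK1 encodes a serine/threonine kinase related to AKT that regulates ion channels and transporters. Its transcription is known to respond to serum, osmotic stress, growth factors and YAP activity as well as to corticosteroids.

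The start-site regions of TSC22D3 and KLF9, which stood higher in all treated arrays, and of SGK1, which stood lower and farthest down at 48 h, are shown with one of FKBP5, which carries a receptor half-site. RefSeq (GRCh38.p14) gave 21 windows for the 6 genes, each reaching from 250 bases before to 50 bases after a start site. FKBP5 had 2 windows, KLF9 1, NR3C1 7, NR3C2 4, SGK1 3 and TSC22D3 4. Except for KLF9, the printed windows were picked for motifs they hold. These were TATAAA for TSC22D3, TATAAA with GGGCGG for the first SGK1 window, and TGTTCT for FKBP5 and the upstream SGK1 start. Their motifs thus do not stand for the other start sites of these genes. Each sequence below spans 280 bases on the minus strand, read 5′ to 3′ and ending 30 bases past the start, and capitals mark the motifs searched, in either orientation.
TSC22D3 chrX:107717033-107717312: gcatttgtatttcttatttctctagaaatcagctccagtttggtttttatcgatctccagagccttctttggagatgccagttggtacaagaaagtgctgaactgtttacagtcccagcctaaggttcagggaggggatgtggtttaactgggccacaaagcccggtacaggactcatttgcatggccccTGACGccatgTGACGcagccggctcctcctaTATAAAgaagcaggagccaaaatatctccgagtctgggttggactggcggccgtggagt
SGK1 chr6:134174837-134175116: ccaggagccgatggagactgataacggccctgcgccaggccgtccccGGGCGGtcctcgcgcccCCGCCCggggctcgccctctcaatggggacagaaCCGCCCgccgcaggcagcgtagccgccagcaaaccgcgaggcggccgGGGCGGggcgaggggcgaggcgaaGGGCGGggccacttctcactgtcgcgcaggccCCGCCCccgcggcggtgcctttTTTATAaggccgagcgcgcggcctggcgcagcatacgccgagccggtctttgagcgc
KLF9 chr9:70414628-70414907: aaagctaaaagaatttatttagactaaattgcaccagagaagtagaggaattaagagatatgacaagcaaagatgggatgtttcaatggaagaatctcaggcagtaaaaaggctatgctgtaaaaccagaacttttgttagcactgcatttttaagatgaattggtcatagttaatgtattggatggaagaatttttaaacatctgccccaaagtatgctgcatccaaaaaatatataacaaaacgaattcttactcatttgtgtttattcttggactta
FKBP5 chr6:35728554-35728833: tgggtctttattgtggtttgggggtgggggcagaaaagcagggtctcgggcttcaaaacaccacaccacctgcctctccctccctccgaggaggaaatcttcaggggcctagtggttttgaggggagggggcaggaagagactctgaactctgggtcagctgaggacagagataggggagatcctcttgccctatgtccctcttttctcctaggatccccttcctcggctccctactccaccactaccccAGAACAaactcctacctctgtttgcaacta
SGK1 upstream start chr6:134177832-134178111: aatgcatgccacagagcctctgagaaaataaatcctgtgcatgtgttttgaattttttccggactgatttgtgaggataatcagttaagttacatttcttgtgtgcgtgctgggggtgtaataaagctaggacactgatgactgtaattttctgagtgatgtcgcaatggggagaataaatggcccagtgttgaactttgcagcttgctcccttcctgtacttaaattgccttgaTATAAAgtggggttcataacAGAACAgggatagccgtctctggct
The TSC22D3 window held TGACG, the half-site of the cyclic AMP response element, at -60 and -50, and TATAAA at -29, counted from the start site. The first SGK1 window held 6 copies of GGGCGG, the GC box, and TATAAA at -27, whereas the other printed SGK1 window held TATAAA at -15 and the receptor half-site TGTTCT at 5. The FKBP5 window held TGTTCT at 0, beginning at the start base itself, and the KLF9 window held none of the 6 motifs. The full receptor element, GNACA and TGTNC with NNN between them, was found in 0 of the 21 windows and in 0.39% of 35116 windows of the same length over all genes. The half-site TGTTCT was in 2 of the 21 windows (14.8% of all windows), TATAAA in 5 (11.5%), GGGCGG in 14 (45%), TGACG in 9 (24.6%) and CACGTG, the E-box, in 1, of FKBP5 (7.26%). Some windows of NR3C1, NR3C2 and TSC22D3 overlap one another, so 1 match can count in more than 1 window. These searches covered both strands, motifs did not overlap one another in the printed windows, and a match or its absence describes letters in these windows and nothing about the receptor's binding elsewhere.

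The glucocorticoid receptor transcript was lower in all 12 treated arrays. The brightest NR3C1 probe set read 7.50, 7.57, 7.90 and 7.57 in untreated cells, 6.32, 6.25, 6.19 and 6.02 at 6 h, 6.07, 6.49, 6.40 and 6.29 at 24 h, and 6.53, 6.53, 6.81 and 6.67 at 48 h. No treated array reached the lowest untreated one, and the 48 h arrays lay above all those of 6 h and 24 h. Group means were 7.63 ± 0.18 in untreated cells, 6.20 ± 0.13 at 6 h, 6.31 ± 0.18 at 24 h and 6.63 ± 0.13 at 48 h (SD, n = 4 each). Relative to untreated cells the level was 2.71-fold, 2.50-fold and 2.00-fold lower at 6, 24 and 48 h, the first of these a log2 difference of -1.44 ± 0.10 (SE). All 10 NR3C1 probe sets were lower with no overlap with the untreated arrays at each time (below the untreated arrays without overlap were 14.8%, 15.2% and 17.8% of all tested genes at 6, 24 and 48 h), by -1.51 to -1.01 at 6 h, -1.39 to -0.96 at 24 h and -1.34 to -0.70 at 48 h. The partial recovery between 24 h and 48 h was 0.32 ± 0.10 in the brightest probe set and had the same sign in 10 of 10, from 0.03 to 0.39, although the arrays of the 2 times overlapped in 6 of those 10. Of all tested genes, 14.3% lay above their 24 h arrays at 48 h without overlap.

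The mineralocorticoid receptor gene NR3C2 gave signals near the floor of the arrays in every group. Its brighter probe set read 3.47, 3.41, 3.20 and 3.19 in untreated cells, 3.08, 3.35, 3.27 and 3.29 at 6 h, 3.45, 3.24, 3.27 and 3.60 at 24 h, and 3.61, 3.25, 3.39 and 3.41 at 48 h. All 4 groups overlapped, and the other probe set ranged from 3.09 to 3.45. The probe set mean lay below the limit on dim signals, so neither a level nor a change of NR3C2 was measurable with these arrays.

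FKBP5 differed little between the groups. It read 9.23, 9.27, 9.31 and 9.25 in untreated cells, 9.33, 9.45, 9.48 and 9.38 at 6 h, 9.38, 9.41, 9.41 and 9.46 at 24 h, and 9.12, 9.13, 9.23 and 9.01 at 48 h. The 6 h and 24 h arrays all stood above the untreated ones by a narrow margin, and at 48 h the highest array met the lowest untreated array. The differences from untreated cells were 0.14, 0.15 and -0.14 at 6, 24 and 48 h, each ± 0.05 (SE), and 48 h lay below 24 h by -0.29 ± 0.05. The next probe sets in brightness gave larger early differences of 0.35 and 0.42 at 6 h, and the 4 probe sets above the dim limit ranged from 0.09 to 0.42 at 6 h, -0.01 to 0.29 at 24 h and -0.14 to -0.01 at 48 h. These small differences moved with the scaling of the arrays: after cyclic loess normalization they were 0.05, 0.06 and -0.22. The median change of all 13680 tested genes was 0.0925, 0.0875 and 0.075 at the 3 times, which is of the same order as the FKBP5 differences.

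TSC22D3 stood higher in all 12 treated arrays, by a little less at 48 h than before. It read 7.95, 8.12, 8.15 and 8.07 in untreated cells, 8.91, 8.86, 8.81 and 8.91 at 6 h, 8.91, 8.92, 8.91 and 8.72 at 24 h, and 8.76, 8.71, 8.68 and 8.68 at 48 h. The lowest treated array, 8.68, lay above the highest untreated array, 8.15. The differences from untreated cells were 0.80, 0.79 and 0.64, each ± 0.05 (SE), or 1.74-fold, 1.73-fold and 1.55-fold. All 3 of its probe sets were higher without overlap at each time (30.9%, 31.1% and 30% of all tested genes were), by 0.42 to 0.83, 0.63 to 0.84 and 0.58 to 0.77. Larger rises were seen in 205, 278 and 848 of the 13680 tested genes at 6, 24 and 48 h.

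KLF9 had the largest rise among these genes. It read 7.34, 7.40, 7.50 and 7.19 in untreated cells, 8.53, 8.46, 8.50 and 8.41 at 6 h, 8.63, 8.58, 8.62 and 8.62 at 24 h, and 8.44, 8.38, 8.42 and 8.51 at 48 h. The treated arrays formed a narrow band about 1 log2 unit above the untreated ones, with the 24 h arrays above all others in this probe set. The difference of 24 h from 6 h was 0.14 ± 0.06 (SE) and did not pass the limma threshold given below. In the next brightest probe set the 24 h arrays overlapped those of 6 h and of 48 h. The differences were 1.12, 1.25 and 1.08, each ± 0.06 (SE), or 2.17-fold, 2.39-fold and 2.11-fold. Of the tested genes, 53, 45 and 179 rose more at 6, 24 and 48 h. The other KLF9 probe set above the dim limit gave 1.00, 1.16 and 1.11, whereas the remaining 2 were dim and overlapped between treated and untreated arrays, so that the mean over all 4 probe sets gave 0.53, 0.66 and 0.57.

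**Figure D1:**
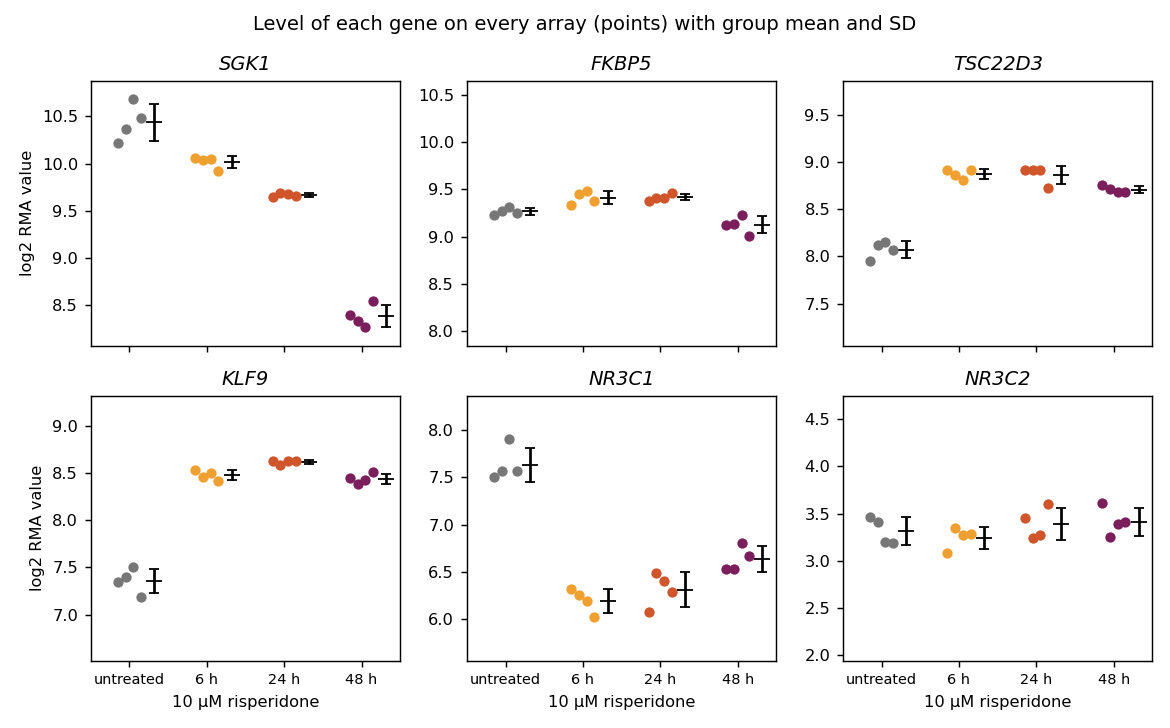
Log2 RMA level (vertical axis) of the brightest probe set of each of the 6 genes in the 4 groups, with 1 point per array and a line at each group mean with its SD. KLF9 and TSC22D3 stood higher and NR3C1 lower in all 12 treated arrays, SGK1 stepped down to 8.39 at 48 h, FKBP5 stayed between 9.01 and 9.48, and NR3C2 lay near the floor throughout.

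SGK1 went lower at each successive time. It read 10.22, 10.37, 10.68 and 10.48 in untreated cells, 10.06, 10.04, 10.05 and 9.92 at 6 h, 9.65, 9.69, 9.68 and 9.66 at 24 h, and 8.40, 8.33, 8.27 and 8.55 at 48 h. The 4 groups did not overlap anywhere, and 27 of the 13680 tested genes (0.197%) showed such a stepwise fall without overlap, while 73 (0.534%) showed a stepwise rise. Group means were 10.44, 10.02, 9.67 and 8.39 in that order. Relative to untreated cells the differences were -0.42, -0.77 and -2.05, each ± 0.08 (SE), that is 1.34-fold, 1.70-fold and 4.14-fold lower. All 4 SGK1 probe sets were lower without overlap at each time, beside 14.8%, 15.2% and 17.8% of all tested genes at 6, 24 and 48 h. Their changes were -0.57 to -0.42 at 6 h, -0.83 to -0.74 at 24 h and -2.18 to -2.05 at 48 h.

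Most of the SGK1 fall lay between 24 h and 48 h. The 48 h level was 2.43-fold lower than at 24 h, a difference of -1.28 ± 0.08, and 4 of the tested genes fell more over that interval. The difference of 24 h from 6 h was -0.35 ± 0.08, and 57 genes fell more there. The arrays of 24 h and 6 h overlapped in 1 of the 4 SGK1 probe sets. Without overlap, 4.8% of all tested genes were lower at 24 h than at 6 h and 16.1% at 48 h than at 24 h. KLF9 and TSC22D3 moved little over the late interval, by -0.17 ± 0.06 and -0.16 ± 0.05, and the arrays overlapped for TSC22D3.

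**Figure D2:**
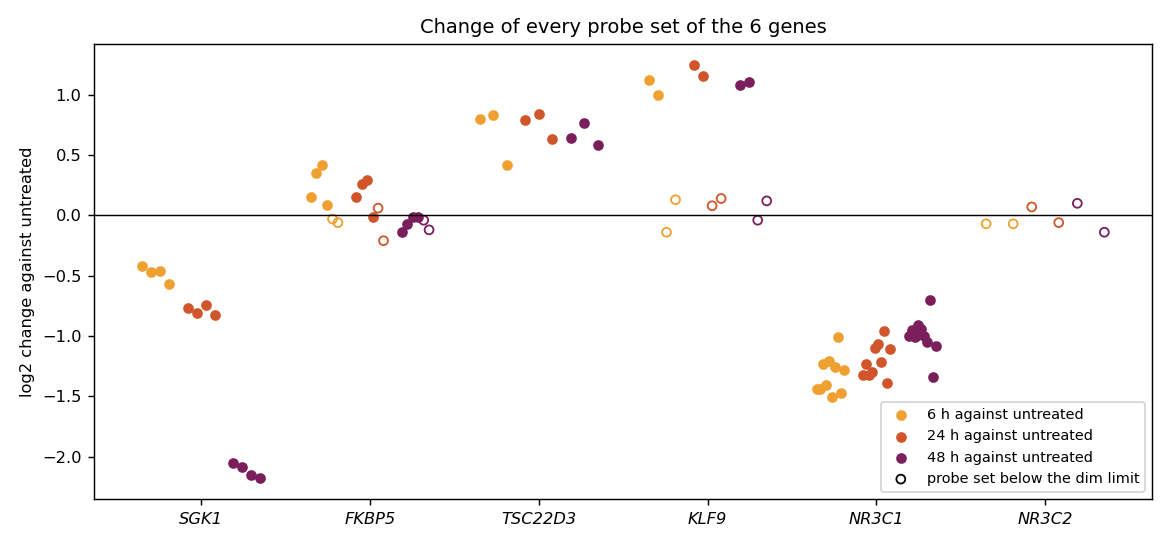
Log2 change from the untreated mean (vertical axis) of every probe set of the 6 genes at 6, 24 and 48 h, with open symbols for probe sets below the dim limit. The 4 SGK1 probe sets lie together at each time, all 10 NR3C1 probe sets lie below 0, and the dim KLF9 and FKBP5 probe sets lie near 0.

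By the limma threshold used for all genes, an adjusted p of 0.05, 5 of the 5 tested genes passed against untreated cells at each time, beside 53.3%, 52.1% and 57% of all tested genes at 6, 24 and 48 h. Between times, 1 of 5 passed for 24 h against 6 h (SGK1; 2.4% of all tested genes), 5 for 48 h against 24 h (28.6%) and 4, all but KLF9, for 48 h against 6 h (33.6%). Nothing is read from these counts, since the genes were chosen from these arrays, and the comparisons share groups. The SGK1 call for 24 h against 6 h was lost when any 1 of 7 of the 8 arrays compared was left out (all but 6 h replicate 4), with changes of -0.38 to -0.33 when single arrays were left out. Some of the smaller late differences were also unstable. For 48 h against 24 h the TSC22D3 call was kept under 15 of 26 alternatives, and was lost without 24 h replicate 1, 2 or 3 or 48 h replicate 2, 3 or 4. The KLF9 call was kept under 19, and was lost without 24 h replicate 1, 3 or 4 or 48 h replicate 1, 2 or 3. The NR3C1 call was kept under 22, and was lost without 24 h replicate 1 or 4 or 48 h replicate 3 or 4. With single arrays left out these changes were -0.21 to -0.14 for TSC22D3, -0.20 to -0.16 for KLF9 and 0.24 to 0.38 for NR3C1. The TSC22D3 call for 48 h against 6 h was kept under 20, and was lost without 6 h replicate 1 or 4 or 48 h replicate 2, 3 or 4, with changes of -0.19 to -0.15; it was also lost when its probe sets were averaged. Against untreated cells the calls of SGK1, TSC22D3, KLF9 and NR3C1 were kept under 26 of 26 alternative settings at each time. The SGK1 and FKBP5 calls for 48 h against 24 h and against 6 h were also kept under 26 of 26. So was the NR3C1 call for 48 h against 6 h. These settings refit the same arrays for genes chosen from them, so a kept call is no further support. Against untreated cells FKBP5 lost its call under cyclic loess at 6 h and 24 h. With its probe sets averaged it lost the call at 24 h and 48 h, where the changes were 0.09 and -0.06. It also lost the call when single arrays were left out, namely 6 h replicate 2 (change 0.13) or 3 (0.12), 24 h replicate 4 (0.14), untreated replicate 3 (-0.13 at 48 h) or 48 h replicate 4 (-0.10), and at 48 h when only the 8 arrays compared were fitted (-0.14).

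Markers of the 2 known cell forms in SK-N-SH cultures also differed between treated and untreated arrays. The vehicle and harvest time of the untreated arrays cannot be told apart from the drug in these differences. Of 24 substrate-adherent, mesenchymal markers, 23 fell at each time (16.7%, 16.9% and 21% of all tested genes fell). The remaining one, TWIST1, passed in neither direction at 6 h and 24 h and rose by 0.17 at 48 h. The mean level of the 24 markers per array was 9.09 to 9.32 in untreated cells, 6.67 to 6.99 at 6 h, 6.94 to 7.03 at 24 h and 6.75 to 6.93 at 48 h. Of 19 measured neuroblast-like, adrenergic markers, 16, 15 and 15 rose (36.6%, 35.2% and 36% of all tested genes rose) and 1, 1 and 3 fell. The granin gene SCG2 fell by 1.14 at 6 h and was also lower at 24 h and 48 h. In their brightest probe sets the noradrenaline transporter SLC6A2 and the growth cone protein gene GAP43 fell at 48 h, with changes of -0.31 and -0.21. Their other probe sets above the dim limit gave -0.14 to 0.77 for SLC6A2 and -0.23 to 0.04 for GAP43, whose 48 h arrays overlapped the untreated ones. These genes and TWIST1 were named after their values were seen. Adrenergic mean levels per array were 10.54 to 10.59 in untreated cells, 10.94 to 10.98 at 6 h, 10.99 to 11.02 at 24 h and 11.06 to 11.10 at 48 h. Mesenchymal levels at 48 h (6.75 to 6.93) lay just below those at 24 h (6.94 to 7.03), while SGK1 was lower at 48 h than at 24 h by -1.28. Among the untreated arrays, replicate 3 was highest and replicate 1 lowest for the mesenchymal markers (9.32 and 9.09), for SGK1 (10.68 and 10.22) and for NR3C1 (7.90 and 7.50). The brightest probe sets of TSC22D3 (8.15 and 7.95) and FKBP5 (9.31 and 9.23) had the same order. For KLF9 replicate 3 was highest (7.50) and replicate 4 lowest (7.19), and in another NR3C1 probe set replicate 3 was lowest (5.54). The part of these markers in the changes of the 6 genes was not tested, and fewer cells of a type cannot be told apart from less RNA per cell in such bulk samples. Markers of Schwann cells and glia averaged 4.14 to 4.35 in treated arrays, against 3.96 to 4.03 in untreated ones, endothelial markers 3.62 to 3.84 against 3.61 to 3.72, and leukocyte markers 3.51 to 3.72 against 3.82 to 4.01, all close to the dim limit. Of these, PTPRC and CD14 of leukocytes, CDH5 of endothelium and ERBB3 of Schwann cells lay below that limit, while the lysosomal gene CD68 fell, with changes of -1.50, -1.47 and -1.52 at 6, 24 and 48 h, and the calcium-binding protein gene S100B rose by 0.60, 0.56 and 0.39.

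**Figure D3:**
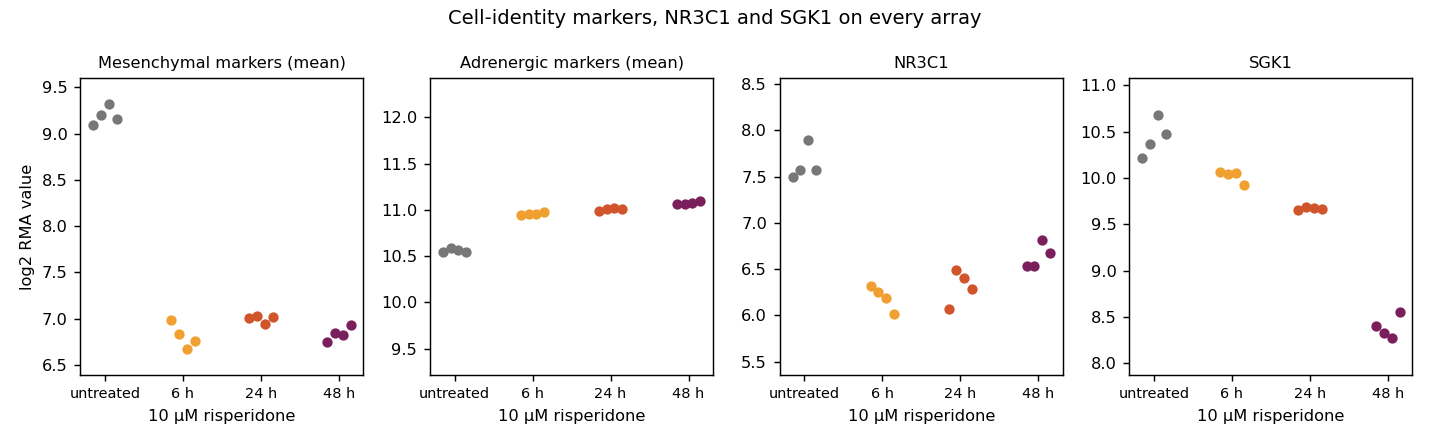
Mean log2 level per array of the mesenchymal and adrenergic marker lists beside the levels of NR3C1 and SGK1, by group, with 1 point per array. The mesenchymal mean dropped to between 6.67 and 7.03 in all treated arrays, and SGK1 continued down to 8.27 to 8.55 at 48 h.

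Other genes known to be induced by glucocorticoids did not move as a block. Of 37 such genes on the array, 26 passed the dim limit. At 6 h 6 rose, 16 fell and 4 passed in neither direction, at 24 h the counts were 6, 16 and 4, and at 48 h 5, 17 and 4. Over all tested genes 36.6%, 35.2% and 36% rose and 16.7%, 16.9% and 21% fell. The median change of the 26 was -0.22, -0.26 and -0.41 at the 3 times, beside 0.09, 0.09 and 0.07 for all tested genes. Including dim genes, 16 of the 37 were higher and 21 lower at 6 h, 17 and 20 at 24 h, and 13 and 24 at 48 h. The split of calls over all genes depends on the scaling: after cyclic loess 3150 genes rose and 3224 fell at 6 h, 3182 and 3247 at 24 h, and 3707 and 3858 at 48 h.

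The genes that rose included enzymes and growth regulators. Beside each gene, values of other probe sets are of those above the dim limit, whereas averages over probe sets include dim ones. MAOA, which encodes monoamine oxidase A and breaks down serotonin and noradrenaline, averaged 9.44 ± 0.04 at 6 h, against 8.19 ± 0.10 in untreated cells (SD, n = 4 each), a rise of 1.25 ± 0.07 (SE, limma adjusted p = 5.88e-11). It remained higher by 1.00 at 24 h and 0.90 at 48 h, and its other probe sets gave 0.13 to 1.39 over the 3 times. CDKN1C, the cyclin-dependent kinase inhibitor p57, rose by 0.98, 1.13 and 1.41 (adjusted p = 1.02e-09, 1.57e-10 and 7.16e-12). DDIT4, an inhibitor of mTORC1 signalling also induced by stress and hypoxia, rose by 0.79, 0.86 and 0.31 (adjusted p = 1.71e-08, 5.62e-09 and 0.00052). KLF15, a zinc finger factor of metabolic genes, rose by 0.38, 0.45 and 0.85 (adjusted p = 5.42e-05, 8.62e-06 and 2.34e-09). PER1, a clock gene with a well known receptor element, changed by 0.18 at 6 h without passing the threshold (adjusted p = 0.103) and rose by 0.40 at 24 h and 0.24 at 48 h (adjusted p = 0.00116 and 0.03). Smaller rises were those of IRS2, an insulin receptor substrate, by 0.14 at 6 h (adjusted p = 0.0237), and SLC19A2, a thiamine transporter. SLC19A2 rose by 0.20 at 6 h and 0.38 at 24 h (adjusted p = 0.0442 and 0.000718). Averaging probe sets gave PER1 0.14 at 24 h and 0.06 at 48 h. Its 48 h call was lost there, under cyclic loess (0.14), and without untreated replicate 1 (0.18) or 4 (0.23) or 48 h replicate 1 (0.19) or 2 (0.22). The 6 h change of PER1 did pass with array medians subtracted (0.20) and without untreated replicate 2 (0.23) or 6 h replicate 3 (0.24). The IRS2 call was lost under cyclic loess (0.06), in the fit of 8 arrays, and without untreated replicate 1 (0.12) or 6 h replicate 2 (0.10) or 3 (0.13), and cyclic loess gave KLF15 0.25 at 6 h.

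The genes that fell had the larger changes. ANXA1, the anti-inflammatory phospholipid-binding protein annexin A1, averaged 7.33 ± 0.33 at 6 h, against 10.72 ± 0.18 in untreated cells, and fell, with changes of -3.39, -3.12 and -3.42 at 6, 24 and 48 h (adjusted p = 1.13e-12, 3.88e-12 and 8.81e-13). The metallothionein MT2A, a metal-binding protein, fell, with changes of -2.56, -2.48 and -2.80 (adjusted p = 3.96e-13, 7.63e-13 and 1.03e-13). Its relative MT1X fell, with changes of -0.99, -0.99 and -1.39 at 6, 24 and 48 h. Metallothioneins are near-identical to one another, so their probe sets may share signal. CRISPLD2, a secreted glycoprotein, fell, with changes of -2.25, -2.29 and -2.51 (adjusted p = 4.4e-11, 3.93e-11 and 9.44e-12) in its brightest probe set, while its other probe sets changed by -0.09 to 0.27 and the average was -0.50, -0.44 and -0.55. STOM, the membrane protein stomatin, fell, with changes of -1.50, -1.11 and -1.17 at 6, 24 and 48 h. RGS2, a regulator of G protein signalling, fell, with changes of -0.93, -1.09 and -1.36 at these times. DUSP1, a phosphatase of MAP kinases, changed by -0.16 and -0.12 without a call and fell by 0.25 at 48 h (adjusted p = 0.0161), a call lost on averaging (-0.09) or without untreated replicate 3 (-0.17). Under cyclic loess DUSP1 did pass at 6 h and 24 h, with changes of -0.29 and -0.24. ZBTB16, a zinc finger factor strongly induced by glucocorticoids in many tissues, was dim, with means of 3.50, 3.44 and 3.42 in treated cells at 6, 24 and 48 h and 3.34 in untreated cells.

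**Figure D4:**
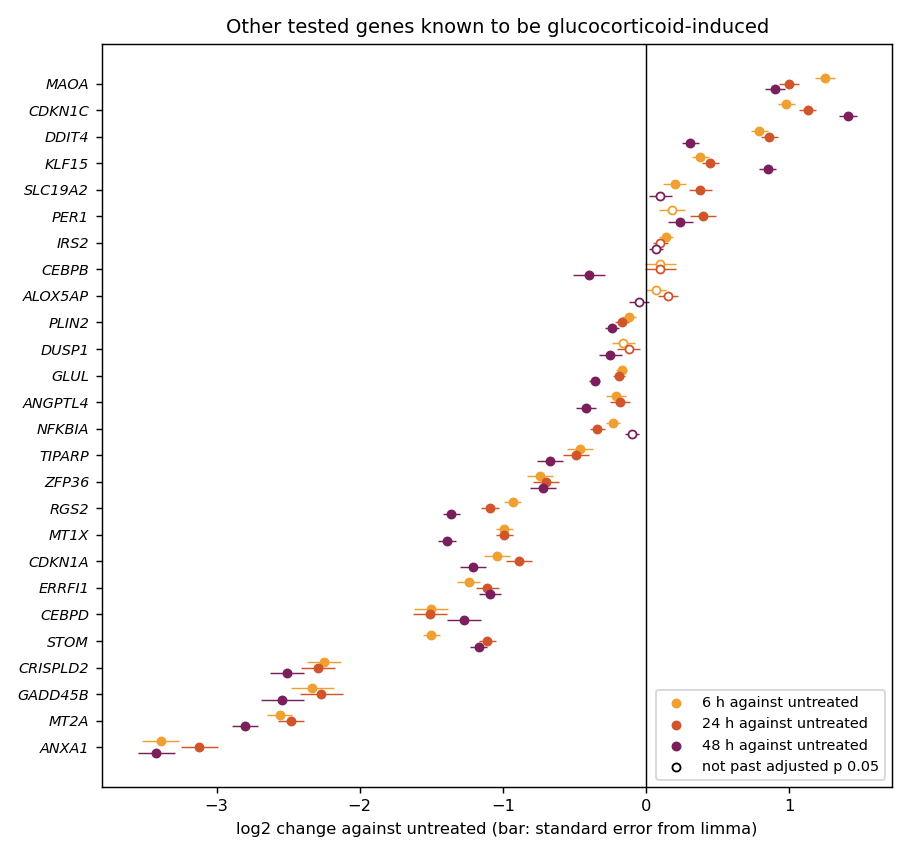
Log2 change from untreated cells (horizontal axis) of the 26 other glucocorticoid-induced genes that passed the dim limit, at 6, 24 and 48 h, with filled symbols for changes past the limma threshold. The falls reach -3.42 for ANXA1, and the rises reach 1.41 for CDKN1C.

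Chaperones and coregulators of the receptor rose about as often as all tested genes. Of 22 such genes 18 were on the array and 16 passed the dim limit; 6 rose at each time, while 1, 1 and 3 fell, beside 36.6%, 35.2% and 36% rising and 16.7%, 16.9% and 21% falling over all tested genes. The median change was 0.08, 0.05 and 0.04, beside 0.09, 0.09 and 0.07. FKBP4, the co-chaperone that competes with FKBP5 in the receptor complex, averaged 10.75 at 6 h, against 10.48 in untreated cells, and rose by 0.26, 0.32 and 0.24 (adjusted p = 0.000554, 7.16e-05 and 0.000749), although its other probe sets changed by -0.28 to 0.23 and averaging gave 0.16 at 24 h and 0.02, without a call, at 48 h. BAG1, a cofactor of HSP70, rose by 0.41, 0.29 and 0.26 (adjusted p = 9.74e-07, 5.01e-05 and 0.000127), and DNAJB1, an HSP40 co-chaperone, rose by 0.35 at 6 h and 0.28 at 24 h. At 48 h the other BAG1 probe sets ranged from -0.26 to 0.33, with an average of 0.14. HSP90AA1, the inducible HSP90, fell by 0.12 at both 6 h and 48 h (adjusted p = 0.021 and 0.019). Both HSP90AA1 calls were lost in fits of 8 arrays and without untreated replicate 3 (-0.09 at both times), that of 48 h also without 48 h replicate 2 (-0.10), and that of 6 h on averaging (-0.08) or with array medians subtracted (-0.09). At 48 h HSPA8, the constitutive HSP70, fell by 0.18 and STIP1, which links HSP70 to HSP90, fell by 0.24, while the coactivator NCOA1 rose by 0.52. The acetyltransferase CREBBP fell by 0.15 at 24 h (adjusted p = 0.0298) and rose by 0.34 at 48 h (adjusted p = 6.15e-05), and its other probe sets gave -0.20 to 0.25. Both CREBBP calls were lost on averaging (-0.08 and 0.08). The 24 h call was also lost with array medians subtracted (-0.13), array weights (-0.12) or 8 arrays fitted, and without untreated replicate 1 (-0.14) or 4 (-0.15) or 24 h replicate 1 (-0.12) or 2 (-0.13), while cyclic loess gave -0.24.

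Steroid metabolism genes were mostly dim. Of 13 on the array 6 were tested, of which 2, 1 and 0 rose and 0, 2 and 1 fell at 6, 24 and 48 h, beside 36.6%, 35.2% and 36% rising and 16.7%, 16.9% and 21% falling over all tested genes. HSD11B1, which regenerates cortisol from cortisone, lay near the floor, with means of 3.32, 3.37 and 3.25 at 6, 24 and 48 h and 3.28 in untreated cells. HSD11B2, which inactivates cortisol, changed by -0.10, -0.15 and -0.10 without passing the threshold, and STAR, which brings cholesterol into mitochondria for steroid synthesis, by 0.01, -0.07 and -0.00, also without a call. At 24 h HSD11B2 did pass under cyclic loess (-0.20) and without 24 h replicate 3 (-0.23). SRD5A1, a steroid 5-alpha-reductase, rose by 0.38 at 6 h and 0.47 at 24 h (adjusted p = 0.0144 and 0.00372), and CYP11B2, aldosterone synthase, rose by 0.21 at 6 h (adjusted p = 0.0308) at a dim mean of 3.97, against 3.76 in untreated cells. H6PD, which supplies the cofactor of HSD11B1, fell, with changes of -0.33 at 24 h and -0.29 at 48 h (adjusted p = 0.00174 and 0.00373). ABCB1, a drug and steroid exporter, fell by 0.23 at 24 h (adjusted p = 0.00703). Other probe sets of H6PD ranged from -0.36 to 0.22 at 24 h and from -0.37 to 0.28 at 48 h, those of ABCB1 from -0.20 to 0.22 at 24 h, and on averaging these calls were lost, with -0.10 and -0.10 for H6PD and -0.04 for ABCB1. The 6 h call of SRD5A1 was lost under cyclic loess (0.26) and without untreated replicate 1 (0.30) or 4 (0.29). That of CYP11B2 was lost under cyclic loess (0.16) and without untreated replicate 1 or 2 (0.18 each) or 6 h replicate 2 (0.15) or 3 (0.20).

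Relatives and partners of SGK1 passed the threshold in shares near those of all tested genes. Of 18 genes 14 were tested, of which 4, 5 and 4 rose and 3, 3 and 4 fell, beside 36.6%, 35.2% and 36% rising and 16.7%, 16.9% and 21% falling over all tested genes. Their medians were 0.12, 0.09 and 0.03, beside 0.09, 0.09 and 0.07. The related kinase SGK3 averaged 4.09 ± 0.06 at 6 h, against 4.75 ± 0.20 in untreated cells, and fell, with changes of -0.66, -0.67 and -0.82 (adjusted p = 1.63e-05, 1.26e-05 and 8.61e-07), whereas SGK2 was dim. FOXO1, a forkhead factor phosphorylated by SGK and AKT kinases, fell, with changes of -1.99, -2.09 and -2.12 (adjusted p = 1.33e-12, 9.81e-13 and 5.3e-13), with -0.55 to -0.46 in its other probe set and -0.70, -0.70 and -0.68 on averaging. FOXO3, which the same kinases phosphorylate, rose by 0.36, 0.36 and 0.58 (adjusted p = 6.79e-06, 6.77e-06 and 1.39e-08). NDRG1, a widely used SGK1 substrate, rose by 0.50, 0.47 and 0.32 (adjusted p = 4.81e-07, 8.79e-07 and 5.88e-05), while averaging its probe sets gave 0.20, 0.18 and 0.12 and cyclic loess gave 0.20 at 48 h. NEDD4, a ubiquitin ligase, fell, with changes of -1.07, -1.14 and -1.33, and its relative NEDD4L, which SGK1 phosphorylates, rose by 0.33 at 24 h (adjusted p = 0.00613). RICTOR, a subunit of the mTORC2 complex that activates SGK kinases, rose by 0.18 at 6 h and 0.24 at 48 h (adjusted p = 0.0129 and 0.00141). The NEDD4L call was lost on averaging (0.09) and under cyclic loess (0.21), and so was that of RICTOR at 6 h (0.01 and 0.07), whose 48 h change was 0.13 under both.

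The families of KLF9, FKBP5, TSC22D3 and the receptors rose about as often as all tested genes. Of 27 relatives 26 were on the array and 25 were tested, of which 9, 10 and 9 rose and 6, 6 and 8 fell, beside 36.6%, 35.2% and 36% rising and 16.7%, 16.9% and 21% falling over all tested genes. KLF13, a close relative of KLF9, rose by 0.82, 0.91 and 0.90 (adjusted p = 7.18e-09, 1.85e-09 and 1.52e-09), and KLF7 rose by 0.68, 0.76 and 0.63. KLF6, which serum and injury induce, fell, with changes of -1.38, -1.49 and -1.86 (adjusted p = 2.16e-11, 9.26e-12 and 4.77e-13). KLF2, a flow-responsive factor, fell, with changes of -1.17 at 6 h and -1.07 at 24 h, and KLF10, a TGF-beta-induced factor, fell by 0.63 at 48 h. FKBP14, a prolyl isomerase of the endoplasmic reticulum, fell, with changes of -0.67, -0.67 and -0.73 (adjusted p = 1.06e-08, 1.06e-08 and 2.17e-09). Averaging probe sets gave KLF2 -0.61 and -0.59, KLF6 -0.89, -0.94 and -1.18 at 6, 24 and 48 h, and KLF7 1.31 at 48 h, all still past the threshold.

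The genes with the most similar time course were taken by the root mean square difference of their log2 change over the 12 treated arrays. For SGK1 these were CUX2 (0.331), E2F7 (0.344) and PLXNA4 (0.347), against a median of 1.37 over all tested genes, and their changes at 48 h were -1.55, -1.78 and -2.21. For KLF9 they were DDX25 (0.0962), ALDOC (0.0978) and TRIM36 (0.102), against a median of 1.07, with rises between 1.06 and 1.22 at all 3 times. For NR3C1 they were CNTNAP2 (0.111), SEMA3C (0.135) and PLEKHA2 (0.151), against a median of 1.37. The SGK1 neighbours were less close than those of KLF9 and NR3C1. FKBP5 and TSC22D3 did not reach the change of 1 log2 unit that this search required.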

How the data were processed

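Total RNA of 16 SK-N-SH samples was hybridised to 1-colour U219 arrays. The authors deposited log2 values per probe set made with RMA, per the submitters' processing notes; the software version is not given in the sources used here, and RMA's background correction and quantile scaling compress low signals. No value was missing. Values ranged from 2.57 to 13.98 and array medians from 4.5 to 4.62; the number of arrays limits the precision.

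Of 49386 probe sets, 93 were controls, 45253 had 1 symbol in the platform annotation, 1327 several and 2713 none. Of those with 1 symbol, 45172 matched RefSeq by Entrez number and 81 did not, and 0 symbols changed. A gene was represented by its single-symbol probe set of highest mean, and the lowest 25% of 18239 genes were left out as dim, which left 13680. limma 3.58.1 (R 4.3.3; lmFit, eBayes) was fitted to the deposited log2 values of all 16 arrays with a mean per group, with two-sided tests and Benjamini-Hochberg adjustment within each contrast at a threshold of 0.05; it was checked on simulated data. Alternatives were another choice of probe set, other dim limits, scalings, variance models, weighting of arrays, a block for the replicate number, a fit of the 8 compared arrays alone, and leaving out each array.

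The genes described and all lists were chosen with earlier results of these data known. Named from the lists were, per contrast with untreated cells, the 5 glucocorticoid-induced genes of smallest p that rose and the 5 that fell, 3 per direction from the other lists, all tested steroid metabolism genes, and PER1, DUSP1, ZBTB16, HSD11B1, HSD11B2, FKBP4, SGK2, SGK3 and CDKN1C always. Where a gene is given at only some times, it may have passed at the others too. For each described gene that changed by 1 log2 unit or more at any time, the 3 genes of most similar course were named.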

Additional observations from a re-analysis of the deposited data

Results flagged for a closer look

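Within groups of 4 arrays, a gap between the highest or lowest array and its neighbour was compared, as a share of the group's range, with Dixon's critical value. This was done for 116 groups of probe sets of the 6 genes and 20 groups of marker lists, and chance passes about 1 in 20 such groups. This value was passed by SGK1 at 6 h in its brightest probe set (0.857) and the next brightest (0.929), by FKBP5 at 6 h in its second-brightest probe set (0.917) and by TSC22D3 at 24 h in its brightest probe set (0.950). In the brightest SGK1 probe set the low array at 6 h read 9.92 and the others 10.04 to 10.06. The TSC22D3 array at 24 h read 8.72, against 8.91 to 8.92 in the others, and stood above all untreated arrays. In FKBP5 the low array read 7.68 and the others 7.79 or 7.80.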

How the results depend on the processing

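With 1 value per gene, no change of SGK1, FKBP5, TSC22D3, KLF9 or NR3C1 relative to untreated cells changed sign under any alternative run. Single probe sets could differ in sign, as 1 of FKBP5 above the dim limit did at 24 h (-0.01). Dim probe sets did so as well, 1 of FKBP5 at 24 h (-0.21) and 1 of KLF9 at 6 h (-0.14). With every probe set tested by itself, 14729, 14776 and 16742 probe sets passed at 6, 24 and 48 h against untreated cells, 848 for 24 h against 6 h, 8196 for 48 h against 24 h and 10010 for 48 h against 6 h, since more features were tested; gene counts were 7288, 7132, 7792, 329, 3907 and 4598. The 24 h against 6 h count was 839 with array weights and ranged from 163 to 378 when single arrays were left out; the cause was not tested. Cyclic loess gave FKBP5 0.05, 0.06 and -0.22, TSC22D3 0.70, 0.70 and 0.54, and KLF9 1.01, 1.15 and 0.98. Averaging a gene's probe sets, dim ones included, gave FKBP5 -0.06 at 48 h, TSC22D3 0.68 at 6 h, and KLF9 0.53, 0.66 and 0.57. Same-numbered arrays of different groups deviated together weakly at most (24 pairs, r from -0.152 to 0.181, median 0.0534, 8 above 0.1). Arrays of other numbers gave r from -0.286 to 0.262 (72 pairs, median -0.0176, 15 above 0.1). An array correlated best with its own number in 17 of 48 cases. These values neither show nor exclude a weak pairing of the samples by number. With the replicate number as a block the counts were 7324, 7186, 7829, 327, 3946 and 4640. Genes below the dim limit, such as NR3C2, have no measurable change at this signal over background.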
